A study of Mus musculus with 10 samples.

Results

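Border macrophages of the brain from mice homozygous for the Mrc1-CreERT2 allele were compared with those of wild-type mice. All 4 homozygous and all 3 wild-type libraries of the series were used, chosen by genotype in the sample names, 7 of 10 libraries in all. The other 3 libraries are heterozygous and entered the count filter, the scaling and the estimate of spread, but no comparison. Each library was made from the CNS-associated macrophages of an individual untreated C57BL/6N mouse aged 6 to 8 weeks, isolated by fluorescence-activated cell sorting. The allele carries CreERT2, a Cre recombinase that needs an oestrogen receptor ligand to act, and by its name sits at Mrc1. No ligand was given in either group, so the comparison is between carrying the allele on both chromosomes and not carrying it, without induction. The wild-type mice carried no control insertion, and the sources used here do not state the gate of the sort.

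Border macrophages live in the meninges, around blood vessels and in the choroid plexus, outside the brain tissue where microglia live. They take up proteins, lipids and debris through scavenger and lectin receptors, break them down in lysosomes, and can present antigen on MHC class II. Mrc1 encodes the mannose receptor CD206, an endocytic lectin that is a standard marker of these cells.

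Libraries held 27358042 to 36575446 counts in the homozygous and 28668839 to 32931690 counts in the wild-type group. The mitochondrial share of counts was 0.360% to 0.582% and 0.448% to 0.749%. All 14 border macrophage markers listed for this purpose had a mean above 100 CPM, counts scaled to 1000000 counts per library, and so did 10 of 12 microglia markers. Wild-type replicate 3 stood apart: its microglia markers summed to 19626 CPM, against 10912 and 12719 CPM in the other wild-type libraries and 9909 to 12330 CPM in the homozygous ones. It is also the only wild-type library with the letter f in its title, a letter that the labels do not explain and that 2 homozygous libraries carry. Values without this library are given beside the results that it moves most. Without it, the calls of Cd52, Slamf9, Coro1a, Clec12a and Hgsnat were lost, with edgeR adjusted p-values between 0.0588 and 0.0774. That fit called 12 genes, 8 higher and 4 lower, of which only 4 were also called with all libraries. Wfdc17 (0.0456) was among the genes that it added.

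The test across 14023 genes called few of them, and the fold changes of most abundant genes were small. By edgeR's quasi-likelihood test, 9 genes had an adjusted p under 0.05 and are referred to as called, 0.0642% of those tested, 3 higher (0.0214%) and 6 lower (0.0428%) in homozygous macrophages. The count depended on the tool and the samples: DESeq2 called 384 genes, and edgeR called 2 of 13040 with only these 2 genotypes in the fit. Above a mean of 100 CPM there were 1797 genes, which held 74.0% of all counts. Of these, 6 were called (0.334%), 2 higher and 4 lower. Among the abundant genes, 147 were higher and 97 lower at an unadjusted p under 0.05 (8.18% and 5.4%), against 4.56% and 2.96% of all genes tested, which together make 7.52%. All 7 libraries were separated by genotype, with no overlap, for 12.6% of abundant genes (7.51% higher and 5.12% lower) and 7.97% of all genes (4.4% higher and 3.57% lower).

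Precision was higher in abundant genes. The standard error (SE) of log2 fold changes had a median of 0.18 above 100 CPM, compared with 0.61 for all genes. The 95% interval of the log2 fold change lay within 1 of 0 for 1623 abundant genes (90.3%), so that a change of 2-fold or more lay outside the interval for these. For 902 of the 1797 (50.2%) it lay within a 1.5-fold change. The share of genes at an unadjusted p under 0.05 was 10.5% up to 1 CPM, 4.71% between 1 and 10 CPM, 6.47% between 10 and 100 CPM, 12.2% between 100 and 1000 CPM and 36.4% of the 99 genes above 1000 CPM. These 99 genes had a median absolute log2 fold change of 0.18 with a median SE of 0.11, so most of their differences were under 1.5-fold. Just inside the limit of 100 CPM stood Ppp4r3b, with a mean of 100.03 CPM and a log2 fold change of -0.40 (SE 0.17), and just outside it Parp9, with 99.97 CPM and -0.48 (SE 0.37).

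**Figure D1:**
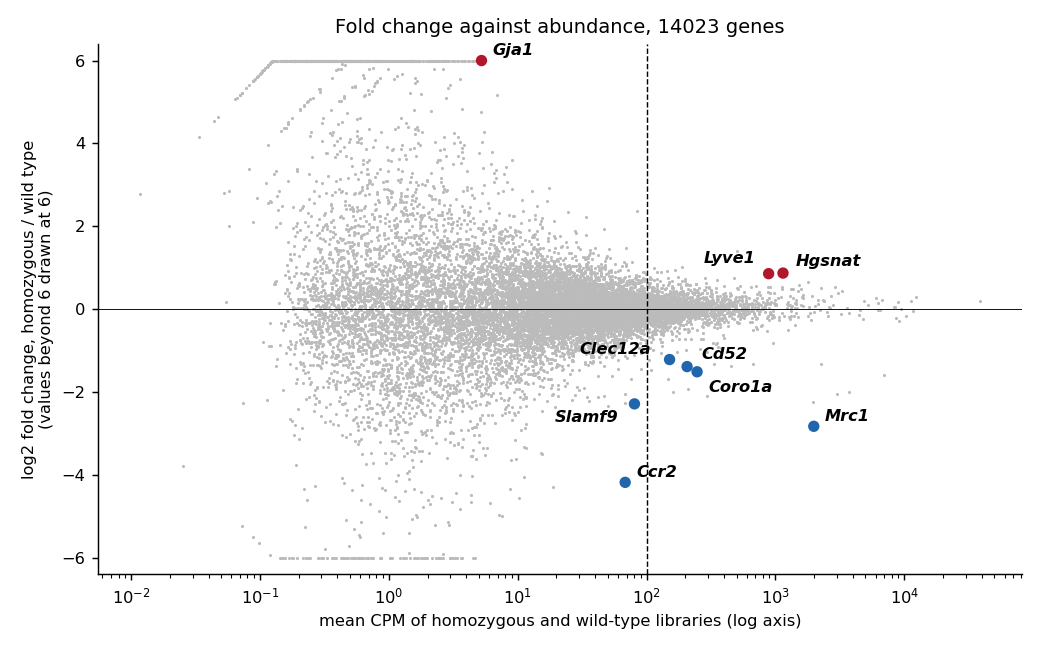
Log2 fold change, homozygous over wild type, against the mean CPM of both groups (log axis) for 14023 tested genes. Grey points are genes not called, red and blue points the 3 higher and 6 lower called genes, and the dashed line marks 100 CPM. The spread of fold changes narrows to the right. Mrc1, at a mean of 1985 CPM, has the lowest log2 fold change above 100 CPM, -2.83. H2-Eb1, not called, follows at -2.26, with means of 682 CPM in homozygous and 3257 CPM in wild-type libraries.

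Mrc1 was at 441, 455, 542 and 519 CPM in the homozygous and 3748, 3065 and 3631 CPM in the wild-type libraries, and its remaining level was 14.1% of wild type. Outside Mrc1, the genes that fell were Ccr2, Slamf9, Cd52, Coro1a and Clec12a. No single library decided the calls of Ccr2 and Mrc1, which passed in all 10 fits that left one out. Mrc1 was called in every alternative, but Ccr2 was not called by limma-voom or with the replicate number as a block. Ccr2, a chemokine receptor of monocytes and monocyte-derived cells, was at 5.72 to 9.29 CPM in the homozygous libraries and at 68.0, 161 and 160 CPM in wild type. In bulk RNA, fewer cells of a type and less RNA per cell cannot be told apart. Slamf9, a receptor of the SLAM family, was at 20.8, 17.4, 36.9 and 34.4 CPM against 120, 119 and 162 CPM. It fell by 2.29 on the log2 scale (SE 0.30, edgeR adjusted p = 0.0315), but was called in 0 of the 10 fits that left out a library, with log2 fold changes of -2.46 to -2.13 and adjusted p-values of up to 0.138.

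Cd52, a small lipid-anchored glycoprotein of leukocytes, was at 101, 99.0, 147 and 109 CPM in homozygous macrophages and 323, 272 and 302 CPM in wild type. It fell by 1.39 (SE 0.17, edgeR adjusted p = 0.0315). Coro1a, a coronin that binds actin filaments in leukocytes, was at 132, 88.6, 156 and 136 CPM against 334, 427 and 336 CPM, and fell by 1.52 (SE 0.20, edgeR adjusted p = 0.0315). In each of these genes every homozygous library lay well below the lowest wild-type library. Clec12a, an inhibitory lectin receptor of myeloid cells, was at 82.6, 108, 88.5 and 84.0 CPM against 255, 158 and 221 CPM. It fell by 1.22 (SE 0.17, edgeR adjusted p = 0.0490), with a gap of 108 to 158 CPM between the groups. These 3 calls also depended on single libraries: of the 10 fits that left out a library, Cd52 was called in 2, Clec12a in 1 and Coro1a in 0, while the log2 fold changes stayed between -1.62 and -1.05.

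The promoters of called lower genes other than Mrc1 and Cd52 are shown because these genes changed in the same direction. The set of RefSeq promoters on GRCm38.p6 used here held 6 of the 9 called genes and had no entry for Cd52. The sequences are the 250 bases upstream of the start, 5′ to 3′ on the gene's strand. Capitals mark the core of PU.1 sites, GAGGAA, or the half-site of MAF factors, TGCTGA, on either strand. PU.1 and MAF proteins are transcription factors of macrophages. The windows are chr9:124101933-124102182 (plus strand) for Ccr2, chr1:172475110-172475359 (plus) for Slamf9, chr7:126704817-126705066 (minus) for Coro1a and chr6:129349994-129350243 (plus) for Clec12a.
Ccr2: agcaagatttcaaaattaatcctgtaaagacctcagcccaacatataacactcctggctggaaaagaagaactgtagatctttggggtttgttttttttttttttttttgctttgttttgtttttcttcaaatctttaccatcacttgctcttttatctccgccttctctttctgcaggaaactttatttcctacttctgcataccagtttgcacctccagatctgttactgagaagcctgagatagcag
Slamf9: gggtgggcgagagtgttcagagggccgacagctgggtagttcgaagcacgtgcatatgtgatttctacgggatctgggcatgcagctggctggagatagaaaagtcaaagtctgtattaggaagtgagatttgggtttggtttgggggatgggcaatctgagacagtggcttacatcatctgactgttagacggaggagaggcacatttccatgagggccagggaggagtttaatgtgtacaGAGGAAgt
Coro1a: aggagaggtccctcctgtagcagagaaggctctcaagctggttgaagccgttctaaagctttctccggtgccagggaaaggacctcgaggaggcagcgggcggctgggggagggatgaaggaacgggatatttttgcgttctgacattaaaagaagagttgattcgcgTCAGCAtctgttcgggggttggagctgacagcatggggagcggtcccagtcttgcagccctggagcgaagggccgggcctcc
Clec12a: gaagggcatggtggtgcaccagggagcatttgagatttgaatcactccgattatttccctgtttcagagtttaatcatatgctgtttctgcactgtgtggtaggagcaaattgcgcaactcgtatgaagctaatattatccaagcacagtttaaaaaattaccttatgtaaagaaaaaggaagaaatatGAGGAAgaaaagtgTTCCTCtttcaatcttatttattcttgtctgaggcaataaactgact
The PU.1 core was found 2 times in the Clec12a window and 1 time in that of Slamf9, and the MAF half-site 1 time in that of Coro1a. A second RefSeq start of Coro1a, with the window chr7:126704221-126704470 (minus), held neither. The window of Ccr2 held neither as well. Over 32851 windows of the same length, 23.3% held the PU.1 core and 16.1% the MAF half-site, so these matches are common.

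Among abundant genes, 8 more had the next smallest p-values on the lower side and did not pass the test over all genes, and 6 of them are given here. H2-DMa, a subunit of the chaperone that loads peptides on MHC class II, was at 201, 232, 202 and 121 CPM in homozygous and 507, 480 and 434 CPM in wild-type libraries (log2 fold change -1.33, SE 0.20, edgeR adjusted p = 0.0567). Tgfbr1, a receptor for TGF-beta, was at 229, 252, 223 and 237 CPM against 378.8, 368 and 507 CPM (-0.83, SE 0.13, edgeR adjusted p = 0.0690). Wfdc17, a small secreted protein of myeloid cells, was at 214, 167, 162 and 160 CPM against 361, 406 and 270 CPM (-0.97, SE 0.16). Neither group of libraries overlapped the other in any of these genes.

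F11r, the junctional adhesion molecule JAM-A, was at 24.1, 71.6, 76.9 and 84.0 CPM in homozygous macrophages and at 219, 205 and 353 CPM in wild type (log2 fold change -2.01, SE 0.38). Lair1, an inhibitory receptor for collagen, was at 126, 136, 126 and 151 CPM against 237, 249 and 321 CPM (-0.999, SE 0.20). For both, wild-type replicate 3 was the highest library, and homozygous replicate 1 was the lowest for F11r. Without wild-type replicate 3 the log2 fold changes were -1.72 for F11r and -0.85 for Lair1.

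Tmem119, a membrane protein used as a marker of microglia, was at 86.2, 130, 127 and 100 CPM in homozygous and 258, 347 and 824 CPM in wild-type libraries (log2 fold change -2.10, SE 0.37). Wild-type replicate 3 was by far the highest library. Without it the log2 fold change was -1.45, and the remaining wild-type libraries still lay above all homozygous ones.

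On the higher side, Lyve1 and Hgsnat were the called abundant genes. Lyve1, a hyaluronan receptor, was at 1106, 1048, 1150 and 1260 CPM in homozygous and at 628, 628 and 638 CPM in wild-type macrophages. Hgsnat, which acetylates heparan sulfate in lysosomes as a step of its breakdown, was at 1524, 1646, 1376 and 1375 CPM against 785, 795 and 852 CPM. They rose by similar amounts, with log2 fold changes of 0.85 (SE 0.10) and 0.87 (SE 0.11), and the libraries of a genotype differed little from each other. The remaining called gene, Gja1, which encodes the astrocyte gap junction protein connexin 43, is not abundant. It was at 13.5, 12.6, 3.78 and 12.1 CPM in homozygous libraries and had 0 counts in each wild-type library (edgeR adjusted p = 0.0315). With 3 counts in the group taken as the floor, the ratio is 329-fold. That floor covers counting error only, so the true ratio may be smaller. Of the 10 fits that left out a library, Lyve1 was called in 4, Hgsnat in 2 and Gja1 in 1, and no higher gene was called with only the 2 genotypes or with the replicate number as a block.

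The next higher abundant genes had smaller fold changes and did not pass over all genes. Stab1, a scavenger receptor for acetylated lipoproteins, was at 3739, 3435, 3177 and 3275 CPM against 2264, 2346 and 2438 CPM (log2 fold change 0.54, SE 0.08, edgeR adjusted p = 0.0567). Npl, a lyase of sialic acid breakdown, was at 223, 251, 214 and 204 CPM against 132, 120 and 139 CPM (0.78, SE 0.12, edgeR adjusted p = 0.0642). Pf4, the chemokine CXCL4, was at 2623, 2596, 2900 and 2510 CPM against 1988, 1927 and 1717 CPM (0.50, SE 0.08, edgeR adjusted p = 0.0690). The groups were apart in all of them although the differences were well under 2-fold.

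Tgfbi, a secreted matrix protein, was at 1749 to 1987 CPM in homozygous and at 1050, 1307 and 1347 CPM in wild-type libraries (log2 fold change 0.58, SE 0.10). Cd38, an ectoenzyme that consumes NAD, was at 548 to 637 CPM against 399 to 445 CPM (0.52, SE 0.09). Colec12, a scavenger receptor of the collectin family, was at 392 to 469 CPM against 242 to 299 CPM (0.70, SE 0.14). These are surface or secreted proteins, as are Pla2g7, which inactivates platelet-activating factor (0.49, SE 0.10), and Ednrb, an endothelin receptor (0.74, SE 0.16). Ccdc47, a membrane protein of the endoplasmic reticulum, was at 205 to 234 CPM against 85.7, 113 and 143 CPM (0.95, SE 0.18). Mmp9, a secreted gelatinase, had the largest fold change on this side and the widest spread, with 752, 617, 1050 and 485 CPM against 316, 317 and 190 CPM (1.41, SE 0.30, edgeR adjusted p = 0.262).

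**Figure D2:**
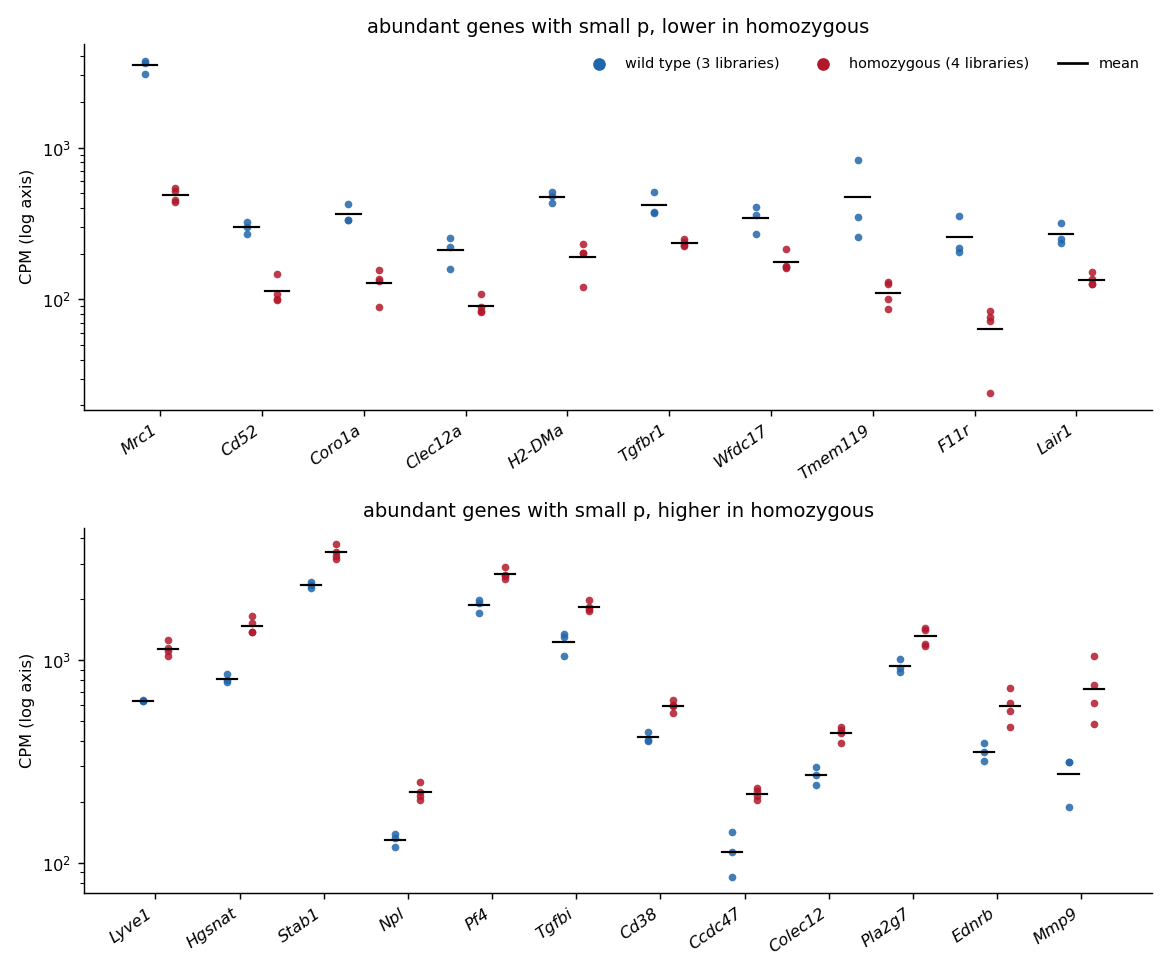
CPM (log axis) of 10 lower and 12 higher genes above 100 CPM, from the 12 of each direction with the smallest p, called or not. Each point is a library, blue for wild type and red for homozygous, and black bars are means. The groups do not overlap for any of these genes, which were chosen for their small p, and the gaps are wider in the lower genes.

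Large changes among abundant genes were nearly all decreases. Of the 1797, 25 had a fitted change of more than 2-fold, 23 lower and 2 higher, Mmp9 and Pomk. The lower ones included the MHC class II chains H2-Eb1 (log2 fold change -2.26), H2-Aa (-2.04) and H2-Ab1 (-1.99), their invariant chain Cd74 (-1.58), the selectin ligand Selplg (-1.37), the receptor kinase Axl (-1.32) and the interferon-response genes Irf7 (-1.07) and Ifit3 (-1.03). These 8 and Pomk were chosen after their values were seen, and no gene among them was called. H2-Aa varied widely within both groups, with 1483, 1656, 1164 and 382.5 CPM in homozygous and 6656, 4687 and 3101 CPM in wild-type libraries. Homozygous replicate 4 was the lowest library for all 4 of the MHC class II genes. Without wild-type replicate 3 the values for Axl and Selplg were -0.95 and -0.84, and the split was 23 lower and 6 higher.

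Fitting and testing the 1797 abundant genes alone called 44 genes, 20 higher and 24 lower. All 44 were free of overlap between the groups, as were 12.6% of all abundant genes. They included all 24 genes that lead the abundant ones by p, 12 on either side. The 44 were chosen for small p on the same libraries, so neither point is separate evidence. Of the other 20, 19 are named because this fit called them. On the lower side they were Fxyd5, a regulator of the sodium pump, Axl, Fgl2, Frmd8, Sdc3, Gatm, an enzyme of creatine synthesis, Arhgap30, a GTPase-activating protein, Pmepa1, Tmem176a, the interferon-induced Ifi27l2a, the MHC class II chaperone subunit H2-DMb1 and the immunoglobulin heavy chain Ighm. On the higher side they were the Fc receptors Fcgr2b (log2 fold change 0.43) and Fcgrt (0.65), the clathrin adaptor Dab2 (0.44), the sorting nexin Snx2 (0.53), Ninj1 (0.55), Aplp2 (0.56) and the mitochondrial enzyme Idh2 (0.63).

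Of these 44 genes, 19 were called in that fit with each of the 10 libraries left out. They included Mrc1, Tmem119, F11r, Coro1a, Fxyd5, Cd52, H2-DMa, Clec12a, Lair1, Wfdc17, Ighm and Tgfbr1, lower, and Pf4, Stab1, Tgfbi, Lyve1 and Hgsnat, higher. The count was 22 without wild-type replicate 1, 24 without homozygous replicate 2, 29 without homozygous replicate 1 or 3, and 50 without wild-type replicate 3. Ighm is also a B cell marker, and the summed level of the other B cell markers was 78.5 to 105 CPM in homozygous and 133 to 182 CPM in wild-type libraries. Among them Cd79b overlapped between the groups (-0.26, SE 0.27), and Cd22 did not, at 13.6 to 23.7 CPM against 37.4 to 63.8 CPM. Of the 7 B cell markers tested, Ighm included, 6 were fitted lower and 1 higher. At an unadjusted p under 0.05, 2 were lower, against 2.96% of all genes. The part of B cells in the value of Ighm was not tested.

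**Figure D3:**
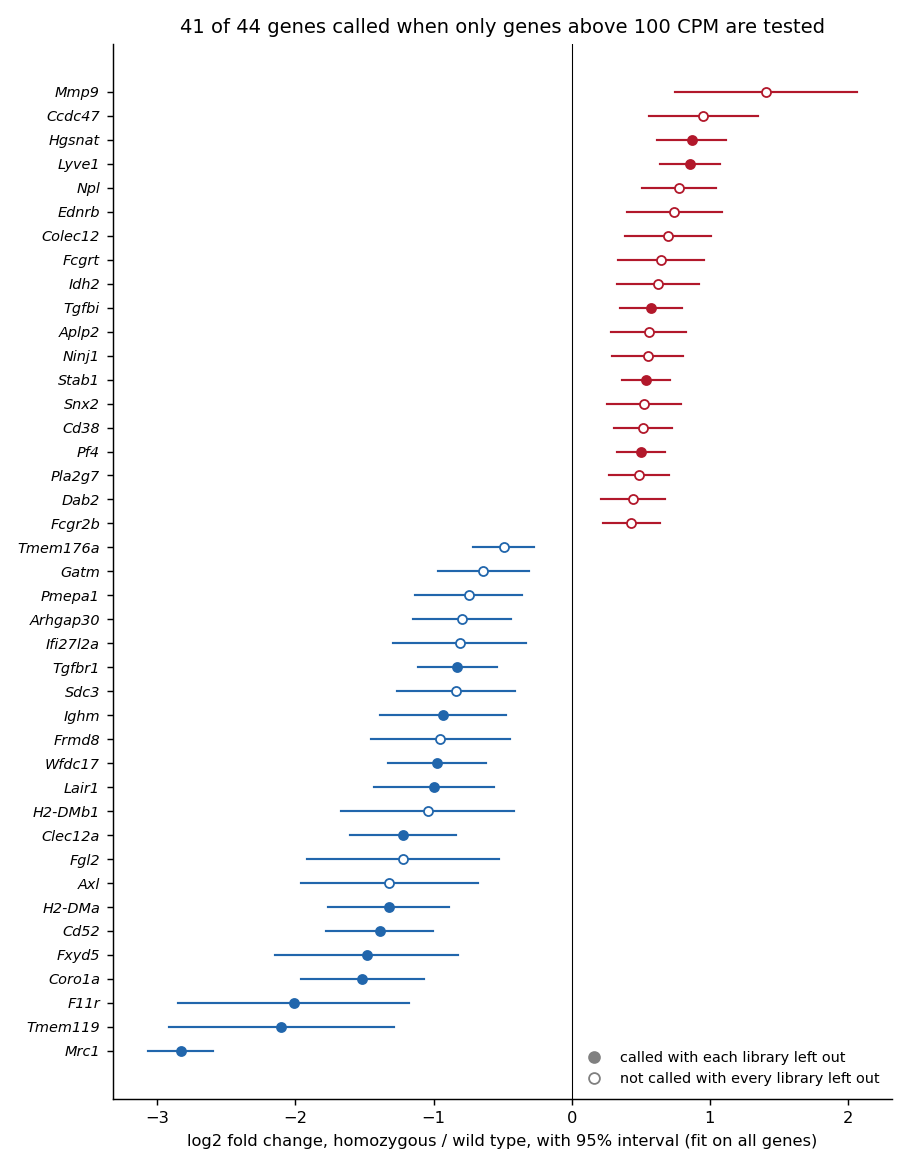
Log2 fold changes with 95% intervals, from the fit on all genes, of 41 of the 44 genes called when only genes above 100 CPM were tested. Filled points mark 17 genes that were called whichever library was left out, and red and blue mark higher and lower. Intervals of the lower genes are wider, and Mrc1, at -2.83, lies apart from the rest.

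The genes with the most counts had small fold changes. Apoe, the lipid carrier apolipoprotein E, was at 38612 to 47475 CPM in homozygous and 32555 to 39740 CPM in wild-type libraries (log2 fold change 0.20, SE 0.13). The cathepsin Ctsb (0.30), the growth factor receptor Csf1r (0.18), the complement subunits C1qc (0.17) and C1qb (0.05), Itm2b (0.01), the actin-sequestering Tmsb4x (-0.05), lysozyme Lyz2 (-0.16), the protease inhibitor Cst3 (-0.21) and beta-actin Actb (-0.29) completed the 10 genes with the highest mean, and none was called. The SE of these 10 was 0.13 or less. The libraries of the groups did not overlap for 2 of the 10, Ctsb and Csf1r, against 12.6% of abundant genes.

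Genes of clathrin-mediated uptake had the most members higher of 29 function lists. Of 24 tested members, 7 were higher and 1 lower at an unadjusted p under 0.05, and none was called. The shares were 4.56% and 2.96% of all genes, and 8.18% and 5.4% of abundant genes, to which 17 of the members belong. The median log2 fold change of the members was 0.19, and 0.30 for these 17, against 0.02 for all abundant genes. The coat itself was represented by the clathrin heavy chain Cltc, at 1694, 1969, 1730 and 1963 CPM against 1271, 1492 and 1625 CPM (0.33, SE 0.12). Subunits of the adaptor AP-2, which links clathrin to cargo, differed among themselves: Ap2a2 was at 535 to 659 CPM against 355 to 464 CPM (0.48, SE 0.12), Ap2s1 at 161 to 207 CPM against 130 to 134 CPM (0.51, SE 0.12), and Ap2m1 had 0.30 (SE 0.16). The cargo adaptor Dab2 was at 3585 to 4119 CPM against 2537 to 3230 CPM (0.44, SE 0.10). The endocytic scaffold Itsn1 (0.72, SE 0.24) overlapped between groups, and the member on the lower side was the membrane-bending protein Bin2 (-0.64, SE 0.27). Dab2 and Stab1 are also markers of border macrophages. Without wild-type replicate 3, 6 members were higher, 1 was lower and the median was 0.29, and without wild-type replicate 1 the counts were 5 and 1.

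Lysosomal enzymes of glycolipid breakdown had values in both directions. Of 23 tested members, 4 were higher and 1 lower at an unadjusted p under 0.05, against 8.18% and 5.4% of abundant genes, and the median was 0.10. Hexa, a lysosomal enzyme of ganglioside breakdown, was at 2968, 2917, 3145 and 2946 CPM against 2101, 2389 and 2697 CPM (log2 fold change 0.32, SE 0.09). The other higher members were the beta-galactosidase Glb1 (0.60, SE 0.13), the acid ceramidase Asah1 (0.26, SE 0.06) and the galactosylceramidase Galc (0.55, SE 0.25). Ctsa, which protects Glb1 in the lysosome, had 0.22 (SE 0.13). Glb1 was at 230 to 262 CPM against 145 to 177 CPM, and Asah1 at 1724 to 1811 CPM against 1429 to 1545 CPM. Both were free of overlap, as were 12.6% of abundant genes.

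Actin assembly genes were mostly fitted lower, by small amounts apart from Coro1a. Of 42 tested members, 30 were fitted below 0, 5 were lower and 0 higher at an unadjusted p under 0.05, and the median was -0.13. Of all 14023 genes, 6855 were fitted lower and 2.96% were lower at that p, or 5.4% of abundant genes. The median was -0.06, with 3 lower members, without wild-type replicate 3. Gamma-actin Actg1 was at 255 to 344 CPM against 398 to 469 CPM (-0.45, SE 0.15), and Actb at 7472 to 9069 CPM against 8956 to 11018 CPM (-0.29, SE 0.09). The coronins differed: beside Coro1a, which fell, Coro1c was at 110 to 173 CPM against 176 to 250 CPM (-0.58, SE 0.19), and Coro1b had 0.05 (SE 0.12).

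Surface receptors other than scavenger receptors gave mixed results. In the SLAM family, adhesion receptors of immune cells, Slamf9 fell, and its relatives Cd48 (-0.25, SE 0.13) and Cd84 (-0.17, SE 0.10), the members with the most counts, did not pass. Ly9 was at 7.55 to 36.1 CPM against 40.0 to 50.9 CPM (-0.98, SE 0.42). Slamf1 was at 9.44, 8.47, 10.5 and 2.17 CPM in homozygous libraries and had 0 counts in all 3 wild-type libraries. It was 240-fold higher by the same floor, which covers counting error only, and was not called (edgeR adjusted p = 0.380). Among 14 myeloid lectin receptors, Clec12a fell and Clec4a3 was at 423 to 452 CPM against 278 to 380.6 CPM (0.36, SE 0.12), while Clec4n had 0.12 (SE 0.14). Of 34 genes of Src-family and ITAM signalling, 3 were lower at an unadjusted p under 0.05, among them Lair1 and the receptor Lilra5 (-0.53, SE 0.22), and 0 were higher. Of abundant genes, 5.4% were lower and 8.18% higher at that p, and of all genes 2.96% and 4.56%. Sirpa, the receptor for CD47, had 0.05 and Nfam1 had -0.02.

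At an unadjusted p under 0.05, 4.56% of all genes were higher and 2.96% lower, or 8.18% and 5.4% of abundant genes. Lipid mediator enzymes had 3 members higher and 1 lower of 20 at that p. The higher ones were Pla2g7, the leukotriene C4 synthase Ltc4s, at 271 to 296 CPM against 203 to 220 CPM (0.42, SE 0.12), and the lipoxygenase Alox5 (0.64, SE 0.27). Alox5 and Ltc4s both act in leukotriene synthesis. The lower one was Ptger4, a receptor for prostaglandin E2 (-0.89, SE 0.32), and Pla2g15 had 0.14 (SE 0.12). Of 14 genes of purine signalling, the ATP-gated channel P2rx7 (0.30, SE 0.12) and the ATP-degrading Entpd1 (0.30, SE 0.13) were higher at this level, and the receptors P2ry13 and P2ry12 had 0.17 and -0.44. Among 27 ion channels, 3 were higher and 1 lower, including the endosomal chloride transporter Clcn5 (0.91, SE 0.25) and Clic1 (0.22, SE 0.10), and Orai1 had 0.19.

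Metabolic and housekeeping lists had few members apart from 0. Of 23 genes of glycolysis, 19 were fitted lower with a median of -0.16, but only 1 was lower and 1 higher at an unadjusted p under 0.05, and without wild-type replicate 3 the fitted split was 12 lower and 11 higher. Gapdh was at 217 to 324 CPM against 333 to 363 CPM (-0.31, SE 0.15), Aldoa had -0.10, the hexokinase Hk3 0.39 (SE 0.17) and Ldhb -1.29 (SE 0.40). Of 24 genes of the tricarboxylic acid cycle and fatty acid oxidation, Idh2 was the only member past an unadjusted p of 0.05, at 331 to 380.5 CPM against 200 to 266 CPM, and Mdh1 had -0.08. Of 26 genes of redox defence, the glutathione peroxidase Gpx1 (-0.51, SE 0.15) was the only one, and Prdx1 had -0.08. Among 28 translation factors, 2 were lower and 1 higher, against 5.4% and 8.18% of abundant genes. Eif3a was at 62.3 to 126 CPM against 145 to 208 CPM (-0.89, SE 0.22), Eef1a1 at -0.18 and Eif4g2 at -0.18.

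In the lists of phosphoinositide enzymes (26 genes tested), G proteins and RGS proteins (24), endoplasmic reticulum chaperones (29), cytosolic chaperones (25), autophagy (29), splicing (34), the NF-kB pathway (24), the circadian clock (17), inflammasome (13) and semaphorin signalling (14), at most 1 member passed an unadjusted p of 0.05. Their medians lay between -0.20 and 0.31. Chromatin regulators had 3 higher and 2 lower of 32, and apoptosis regulators 2 higher and 1 lower of 24, against 4.56% and 2.96% of all genes. No gene of these 12 lists was called. Nuclear long noncoding RNAs had 1 higher and 1 lower of 11 tested, and gap junction channels 1 higher, which is Gja1, and 1 lower of 6.

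**Figure D4:**
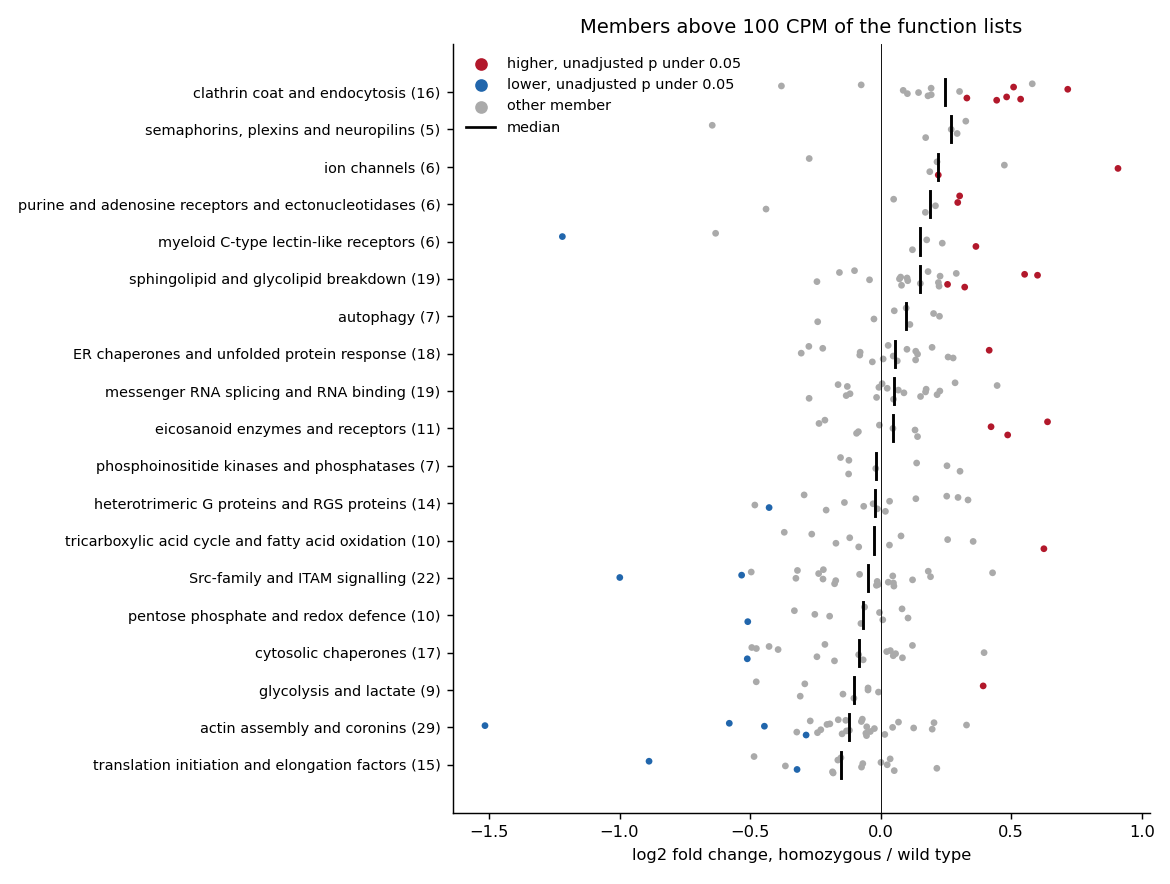
Log2 fold changes, homozygous over wild type, of members above 100 CPM in function lists with at least 5 of them, with the number of members drawn in brackets. Each point is a gene, red or blue where the unadjusted p is under 0.05 and grey otherwise, and black bars are medians. Medians lie close to 0, with clathrin-mediated uptake at 0.25 over the 16 members drawn, and points far from 0 are single genes such as Coro1a.

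The genes on either side of Mrc1, where the allele sits by its name, were also examined. Of 24 RefSeq neighbours, 12 on each side, 16 were tested and 10 were fitted lower. An unadjusted p under 0.05 was reached by 2, against 7.52% of all genes, and none was called. The near neighbour Stam, an endosomal sorting protein, had -0.07 (SE 0.37). Plxdc2, a membrane receptor 6 genes away that was chosen with its values known, was at 22.5, 35.01, 26.4 and 23.9 CPM in homozygous and 48.0, 85.7 and 246 CPM in wild-type libraries (log2 fold change -2.23, SE 0.47, edgeR adjusted p = 0.262), and -1.31 without wild-type replicate 3. Vim, the filament protein vimentin, had -1.27 (SE 0.54). The sialyltransferase St8sia6 was at 0, 1.74, 0 and 0 CPM against 0, 10.9 and 30.6 CPM, and did not pass. In a list of genes flanking Mrc1 that includes Mrc1 itself, 3 of 11 tested were lower at an unadjusted p under 0.05 and 0 were higher. Of all genes, 2.96% were lower and 4.56% higher at that p. The median of the list was -1.02, which is the value of Tmem236 alone (SE 3.06), a gene at 0.838 CPM against 1.70 CPM. It was -1.37 without wild-type replicate 2 and -0.35 without wild-type replicate 3, so it does not describe the neighbours as a group.

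Adjacent genes elsewhere were examined as pairs. In RefSeq order, 244 pairs of adjacent protein-coding genes were both above 100 CPM, and 133 of these pairs (54.5%) had the same fitted direction. In 11 pairs both genes had an unadjusted p under 0.05, 5 pairs both higher, 4 both lower and 2 opposite. Hgsnat, which rose, lies beside Pomk, a kinase of dystroglycan glycosylation at 298, 318, 209 and 192 CPM against 65.2, 174 and 138 CPM (1.02, SE 0.31). Tmem119, Selplg and Coro1c are consecutive and were all fitted lower, and so are the class II genes H2-Ab1, H2-Aa and H2-Eb1. The lectins Mgl2 (0.88) and Clec10a (0.54), also adjacent, are similar in sequence, and reads that fit both cannot be told apart. Pairs were picked after their values were seen.

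Markers of border macrophages other than Mrc1 were all fitted higher. Of the 14 markers, 13 were fitted above 0 with a median of 0.42, 9 were higher at an unadjusted p under 0.05 and 8 of the higher ones had no overlap between the groups, against 8.18% and 7.51% of abundant genes. Lyve1 is the member that was called higher. Cd163, the haemoglobin scavenger receptor, was at 1411 to 1755 CPM against 1017 to 1263 CPM (0.49, SE 0.13), and Clec10a at 715 to 807 CPM against 431 to 612 CPM (0.54, SE 0.13). The coagulation factor F13a1 had 0.39 (SE 0.16) and Cbr2 had 0.27 (SE 0.12). The summed level of the list, which Apoe dominates, was 59860 to 68762 CPM in homozygous and 50420 to 59530 CPM in wild-type libraries. Without wild-type replicate 3, 13 of 14 were again fitted higher, with a median of 0.37, and without wild-type replicate 1 it was 12 of 14.

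Microglia markers split into lower and near-equal members. Of 12, 10 were fitted lower with a median of -1.13, and 6 were lower at an unadjusted p under 0.05, against 5.4% of abundant genes. Sall1, a transcription factor that defines microglia, was at 2.202 to 4.30 CPM in homozygous and 14.8, 19.8 and 26.4 CPM in wild-type libraries (-2.78, SE 0.70). Olfml3, a secreted protein, was at 71.0, 146, 190 and 172 CPM against 321, 411 and 777 CPM (-1.80, SE 0.43), and Sparc (-1.94, SE 0.61) and Siglech (-0.996, SE 0.33) had values of the same sign. The receptors Cx3cr1 (-0.17, SE 0.14) and Fcrls (0.19, SE 0.10), which have more counts, had values near 0. Without wild-type replicate 3 the median was -0.28, with 6 members fitted higher and 6 lower, of which 2 and 4 had an unadjusted p under 0.05, and Sall1, Olfml3, Sparc and Siglech had -2.55, -1.34, -1.11 and -0.59. The part of microglia in the lower genes was not tested.

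**Figure D5:**
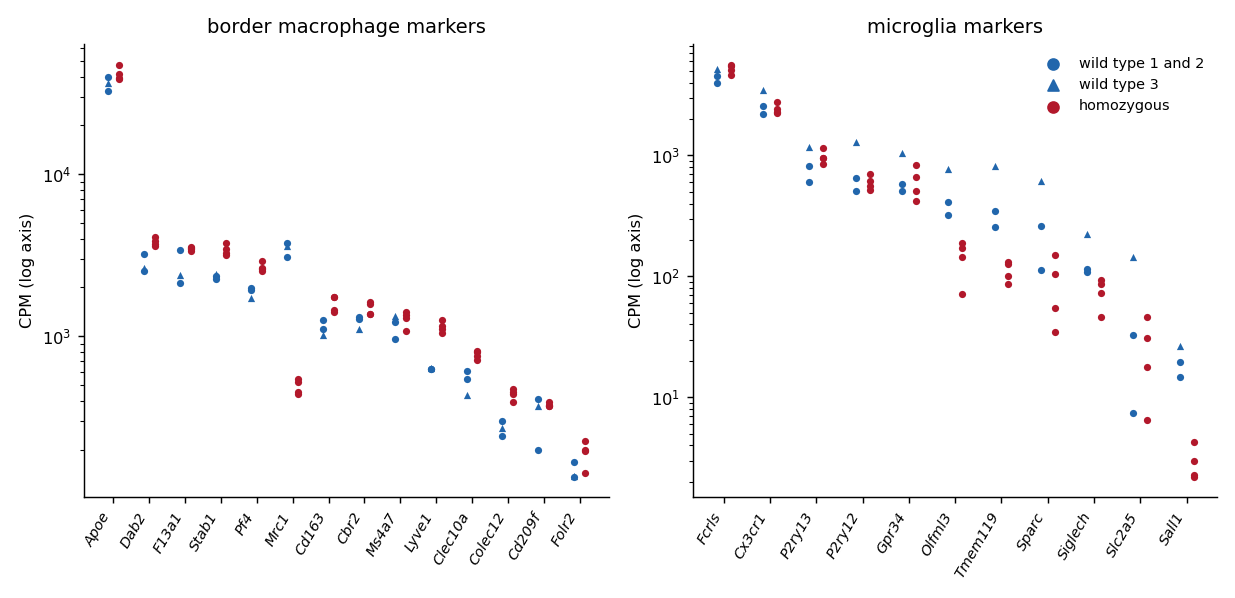
CPM (log axis) of 14 border macrophage and 11 microglia markers in each library. Blue symbols are wild type, with replicate 3 as triangles, and red points are homozygous. Border macrophage markers other than Mrc1 lie slightly higher in homozygous libraries, and the triangles lie highest for Tmem119 and Olfml3.

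Markers of other cells were low beside those of border macrophages, and some of them differed with genotype. Monocyte markers summed to 8.88 to 27.8 CPM in homozygous and 75.9 to 202 CPM in wild-type libraries, of which Ccr2 made up most. Without Ccr2 the sums overlapped, at 3.16 to 18.5 and 7.86 to 42.4 CPM, and the markers Chil3 and F10 had 0 counts in all 7 libraries. Dendritic cell markers summed to 166 to 274 against 229 to 369 CPM. Their list includes Siglech, also a microglia marker, at 46.1 to 93.3 CPM in homozygous and 109 to 223 CPM in wild-type libraries. T and NK cell markers summed to 13.9 to 22.8 against 0.979, 68.8 and 77.9 CPM. Neutrophil markers stayed at or under 1.38 CPM in every library, with S100a8, Ly6g and Mpo at 0 counts, and endothelial markers at or under 6.85 CPM. Astrocyte markers, which include Gja1, summed to 19.0 to 37.9 against 9.91 to 72.9 CPM and so overlapped. Oligodendrocyte markers summed to 140 to 277 against 270 to 336 CPM. Erythroid markers varied from 1.45 to 911 CPM in homozygous and from 2.94 to 192 CPM in wild-type libraries. Ependyma and choroid plexus markers summed to 0 to 66.7 CPM in homozygous libraries. In wild-type replicates 1, 2 and 3 they summed to 347, 1.65 and 0 CPM.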

How the data were processed

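Bulk RNA sequencing of 10 libraries, each from an individual mouse, was analysed, and the comparison used 4 homozygous and 3 wild-type libraries. Per the labels' protocols, cells were sorted into RNAprotect, and libraries were made from 500 pg of RNA with the SMARTer Ultra Low v4 and Nextera XT kits, which do not keep strand, in 1 batch. The authors deposited whole-number read counts per gene symbol. Tools named in the submitters' processing notes are featureCounts 2.0.2, STAR 2.7.8a and bcl2fastq 2.20. Genome build, annotation and strand setting were not given in the sources used here. Reads of overlapping, antisense or near-identical genes therefore cannot be told apart.

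Of 53546 genes, 22778 had a count and 14023 passed filterByExpr (minimum count 10, minimum total 15, by genotype). The counts were scaled by trimmed-mean-of-M-values factors, and CPM use them. Genes were tested with the quasi-likelihood F test of edgeR 4.0.16 in R 4.3.3 (robust, genotype only, all 10 libraries), with Benjamini-Hochberg adjustment over all genes and calls at an adjusted p under 0.05. SEs were obtained as the ratio of the log2 fold change to the root of F, and intervals use the matching t quantile. P-values measure the spread between mice. A fold against 0 counts is a bound against 3 counts over the group and covers counting error only, since the reads carry no molecular identifiers and PCR copies are not independent.

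The text names Mrc1, every called gene, the 12 higher and 12 lower abundant genes with the smallest p, the 10 genes with the highest mean, the 2 members with the highest mean of each list described, the genes called in the fit on abundant genes, and others said to be chosen after their values were seen, which also holds for further list members and markers. A few genes and 1 list that fall under these rules are not reported here. The gene lists, members and tests were chosen with earlier results of these data known. Alternatives were DESeq2 size factors, no count filter, a fit on genes above 100 CPM, limits of 50 and 200 CPM, DESeq2 1.42.0, limma-voom (limma 3.58.1), no robust estimation, the title letter, the replicate number as a block, only these genotypes, and each library left out. Added after seeing the data were a letter by genotype interaction, alternatives to the fit on abundant genes, list counts with each library left out, and the B cell sum without Ighm. The scripts were tested on simulated counts. Promoters and gene order are from RefSeq on GRCm38.p6. Figures were drawn with matplotlib 3.10.9.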

Additional observations from a re-analysis of the deposited data

Results flagged for a closer look

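In groups of 4 homozygous libraries, a library was singled out where its gap to the nearest other library was a larger part of the whole range than Dixon's 95% critical value allows for 4 samples. Of 137 groups of values examined, 7 had such a library, and chance flags about 1 in 20 groups. Gja1 was at 3.78 CPM in homozygous replicate 3 and at 12.1 to 13.5 CPM in the other 3. Wfdc17 was at 214 CPM in homozygous replicate 1 and at 160 to 167 CPM in the others, all below wild type. Ap2m1, an adaptor subunit, was at 377 CPM in homozygous replicate 3 and at 268 to 284 CPM in the others. Clec4a3, a lectin receptor, was at 423 CPM in homozygous replicate 4, below 448 to 452 CPM in the others. P2rx7, an ATP-gated channel, was at 584 CPM in homozygous replicate 1 and at 664 to 673 CPM in the others. St8sia6 was at 1.74 CPM in homozygous replicate 2 and had 0 counts in the others. The summed markers of mast cells and basophils were at 5.42 CPM in homozygous replicate 2 and at 0 to 0.694 CPM in the others. Only 1 wild-type library, replicate 3, carries the title letter f, and it also stands apart in microglia markers, so the effect of genotype within that letter rests on it. No difference between title letters in the effect of genotype passed, with 0 of 13040 genes called by edgeR and 780 at an unadjusted p under 0.05.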

How the results depend on the processing

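The 9 calls depended on the processing, and the cause was not tested. The count was 44 with only genes above 100 CPM in the fit, 384 with DESeq2 (256 higher and 128 lower), 17 with the title letter, 2 with only these 2 genotypes, and 2 to 12 with a library left out. Leaving out wild-type replicate 1 or homozygous replicate 1, 2 or 4 gave 2, heterozygous replicate 2 or homozygous replicate 3 gave 3, wild-type replicate 2 or heterozygous replicate 1 gave 4, heterozygous replicate 4 gave 5, and wild-type replicate 3 gave 12. Mrc1 and Ccr2 were called in each of these 10. Among abundant genes, 6 calls became 44 in that fit, 90 with DESeq2, 13 with the title letter, 1 with only these genotypes and 1 to 4 with a library left out. The 44 calls became 78 with the title letter, 81 with DESeq2 and 22 to 50 with a library left out. The number of abundant genes whose interval lay within 1 of 0 was 1513 to 1648 throughout. Limma-voom called 9 genes, of which 6 were also called in the main fit. It did not call Ccr2, Clec12a or Gja1, and it added H2-DMa, Pf4 and Stab1.

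Labels give genotypes the same replicate numbers. Deviations from the group means correlated at 0.064, -0.024 and 0.065 for numbers 1, 2 and 3, and at -0.145 to 0.083 for unlike numbers. So few libraries cannot decide whether the numbers pair the mice, and the main test did not pair them. With the number as a block, 1 gene was called, Mrc1, which is also the 1 abundant gene called, and the fit on abundant genes gave 55.

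Of 2286 values of 121 named genes over the alternatives, 24 changed sign, all of genes not called. With a library left out, the log2 fold change ranged from -0.11 to 0.017 for Tmsb4x, from -0.043 to 0.070 for Itm2b, from -0.047 to 0.12 for Coro1b, from -0.68 to 0.058 for P2ry12, from -0.024 to 0.45 for P2ry13, from -0.27 to 0.042 for Aldoa, from -0.18 to 0.0039 for Prdx1, from -0.21 to 0.23 for Mdh1, from -0.021 to 0.10 for Sirpa, from -0.079 to 0.044 for Nfam1, from -0.25 to 0.19 for Stam and from -0.30 to 0.035 for Cx3cr1. Wild-type replicate 3 gave the upper end for Itm2b, Coro1b, P2ry12, P2ry13, Aldoa, Prdx1, Mdh1, Sirpa and Cx3cr1. Itm2b had -0.015 with DESeq2 size factors and with DESeq2, -0.017 in the fit on abundant genes and -0.0035 with the title letter. Nfam1 had 0.0075 with the title letter and 0.029 with the block. The median SE was 1.68 between 1 and 10 CPM and 0.18 between 100 and 1000 CPM.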
